A study of Mus musculus with 12 samples.

Results

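The 10 genes described here encode the core of transforming growth factor beta (TGF-beta) signalling. They are the ligand genes Tgfb1, Tgfb2 and Tgfb3, the receptor genes Tgfbr1 and Tgfbr2, the genes of the signal transducers Smad2 and Smad3 and of the inhibitor Smad7, and Ltbp1 and Ltbp2, which encode latent TGF-beta binding proteins. They were chosen by symbol, and each matched 1 Ensembl gene row, 10 of the 56647 gene rows that had values throughout. The 3′ ends of transcripts were sequenced from heart muscle of 10 mice, all of them wild type. In 4 NECA-treated MI mice, NECA, 5′-(N-ethylcarboxamido)adenosine, an adenosine analogue that activates adenosine receptors, was delivered locally into infarcted myocardium. In 3 MI mice the left coronary artery was ligated to cause myocardial infarction (MI). A further 3 mice carried labels of both vehicle and sham, and are called sham vehicle mice. For the MI mice the labels mention no vehicle and no delivery. If they were given none, NECA and its delivery cannot be told apart, nor can ligation and the absence of vehicle. The sources used here do not give age, sex, time after ligation or the part of the ventricle taken.

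TGF-beta ligands are secreted as latent dimers, many of them tied to the matrix through latent TGF-beta binding proteins, and integrins or proteases release them. The free ligand binds the receptor encoded by Tgfbr2, which activates the receptor encoded by Tgfbr1, and that kinase phosphorylates the Smad2 and Smad3 proteins, which enter the nucleus with Smad4. In the infarcted heart the pathway is known for turning fibroblasts into matrix-secreting cells that build the scar.

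MI mice 2 and 3 each had a deep 1st library of 30.75 and 27.13 M counts and a 2nd library of 0.97 and 0.96 M, and the 8 other mice had 1 library of 1.06 to 1.33 M counts each (M, 1e6 counts). Counts of repeat libraries were summed for a mouse. Values with the 2nd libraries alone are called within batch, because the 1st libraries stand apart in depth and hold MI mice only. Summed markers of ventricular cardiomyocytes reached 43259 to 62028 counts per 1e6 counts of the library (CPM) in every library. MI mouse 3, sham vehicle mouse 3 and NECA-treated MI mouse 4 each stood apart from the others, in different ways. Of the 4 atrial markers, MI mouse 3 was high in Nppa alone, with 4254 and 3831 CPM in its 2 libraries, and had at most 3.13 CPM of Myl4, 0.111 CPM of Myl7 and 0 CPM of Sln. Sham vehicle mouse 3 was high in all 4, with 4008 CPM of Nppa, 1346 CPM of Myl4, 785 CPM of Myl7 and 285 CPM of Sln. In every other library the 4 markers summed to at most 293 CPM. All 7 fibroblast markers (Col1a1, Col1a2, Col3a1, Pdgfra, Dcn, Lum and Tcf21) were detected in every library. They summed to 1303 to 4321 CPM in NECA-treated MI mice and 1138 to 10628 CPM in libraries of MI mice, with MI mouse 3 highest. Sham vehicle mice had 539 to 1655 CPM, with mouse 3 highest. Pdgfra and Tcf21 did not follow this in NECA-treated MI mice. They had 28.3 to 47.2 and 4.77 to 7.7 CPM there, within the 22.6 to 54.2 and 3.43 to 8.64 CPM of sham vehicle mice.

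None of the 10 genes passed the test in any comparison. With edgeR's quasi-likelihood test and Benjamini-Hochberg adjustment over 9688 genes, 0 of the 10 had an adjusted p under 0.05 in MI against sham vehicle mice, where 15 genes (0.155%) did. In NECA-treated MI against MI mice it was 0 of the 10, where 1 gene (0.0103%) passed, and in NECA-treated MI against sham vehicle mice 0 of the 10, where no gene (0%) passed. At an unadjusted p under 0.05 the count was also 0 of 10 in each comparison, against 1443 (14.9%), 1060 (10.9%) and 412 (4.25%) of all tested genes. The smallest adjusted p of the 10 genes was 0.399, 0.573 and 0.999 in the 3 comparisons in that order. The median log2 fold change of the 10 was 0.099 in MI against sham vehicle mice, -0.16 in NECA-treated MI against MI mice and 0.15 in NECA-treated MI against sham vehicle mice, beside 0.0049, -0.019 and -0.012 over all tested genes. Of the 10, 5 were higher and 5 lower in the first of these comparisons, 3 and 7 in the second, and 6 and 4 in the third. Among all tested genes, 50.5%, 47.8% and 48% were higher in the same order. Within batch, 9 of the 10 were higher in MI against sham vehicle mice (median 0.26, beside -0.0077 over all tested genes). In NECA-treated MI against MI mice 1 of the 10 was higher (median -0.23, beside -0.011). By the negative medians over all tested genes, more of these were lower than higher in both comparisons within batch. Some of these values were near 0, such as 0.052 ± 0.38 for Smad7 and 0.11 ± 0.35 for Smad2 in MI against sham vehicle mice. All 3 comparisons share mice, so their values are set side by side only. The p-values set group differences against the spread between these mice. That spread includes counting error, and for MI mice 2 and 3 the sums include the deep 1st libraries. In bulk tissue fewer cells of a type and less RNA per cell cannot be told apart.

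**Figure D1:**
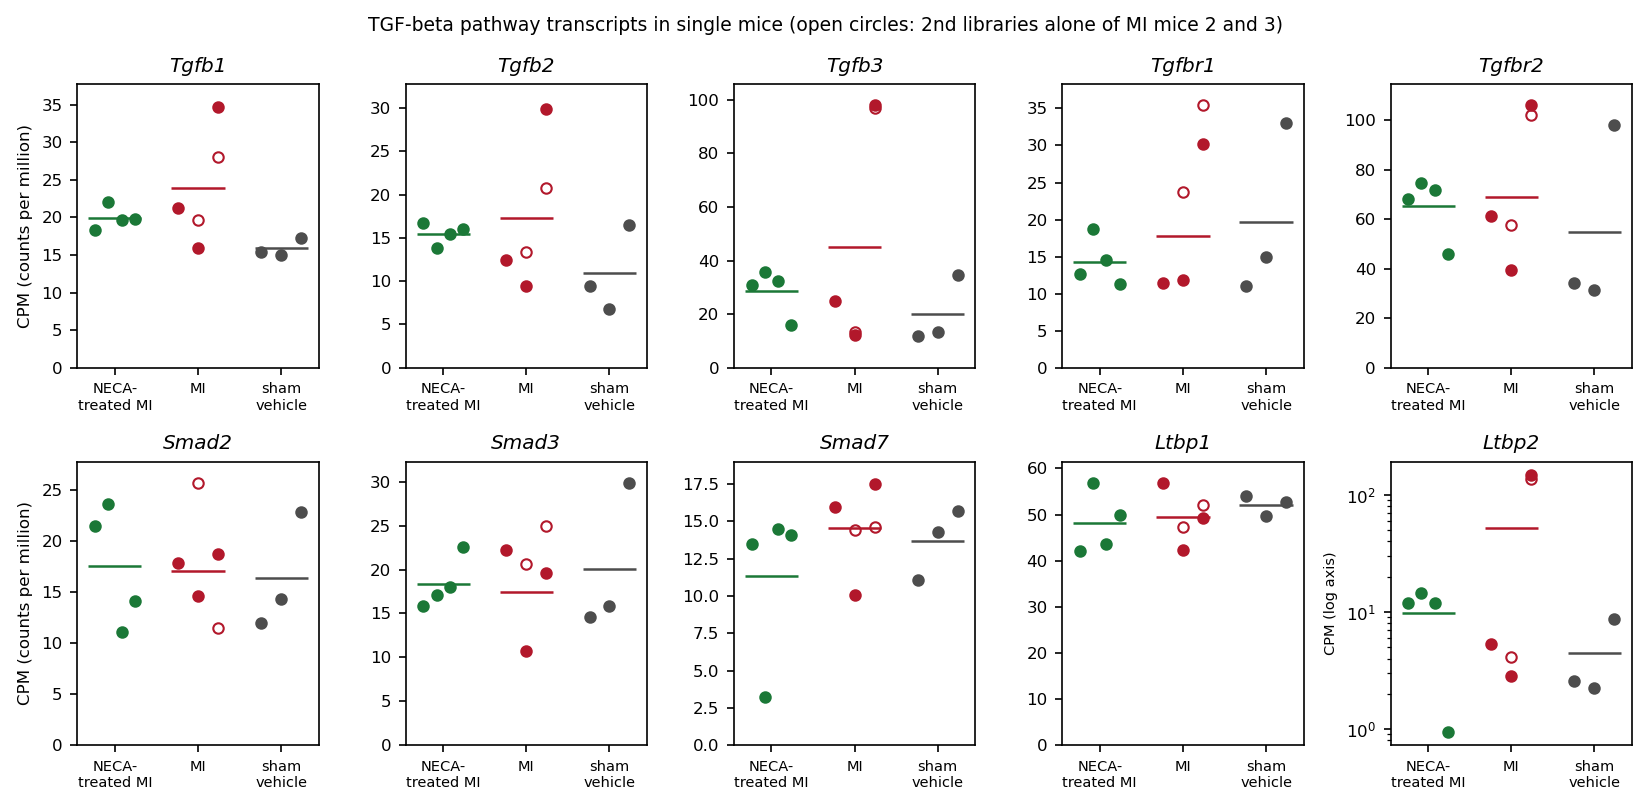
Each filled point is 1 mouse, in CPM of the library total on a linear axis (log axis for Ltbp2), with NECA-treated MI, MI and sham vehicle mice from left to right, lines for group means and open circles for the 2nd libraries alone of MI mice 2 and 3. MI mouse 3 is the highest mouse for Tgfb1, Tgfb2, Tgfb3, Tgfbr2, Smad7 and Ltbp2, with 148 CPM of Ltbp2 against at most 14.6 CPM elsewhere.

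Of the ligands, Tgfb1, the isoform most studied in fibrosis, varied least. Its level was 18.3, 22.0, 19.7 and 19.8 CPM of the library total in NECA-treated MI mice 1 to 4, 21.3, 15.9 and 34.7 CPM in MI mice 1 to 3, and 15.4, 15 and 17.3 CPM in sham vehicle mice 1 to 3. All 4 NECA-treated MI mice lay above all 3 sham vehicle mice, whereas MI mouse 2 lay below sham vehicle mouse 3. The former gap is within counting error, with 23, 27, 23 and 21 counts in NECA-treated MI mice and 18, 20 and 22 in sham vehicle mice. The nearest mice, at 18.3 and 17.3 CPM, had 95% Poisson intervals of 11.6 to 27.4 and 10.8 to 26.2 CPM. After TMM scaling, which corrects CPM for differences in RNA composition, the MI mice also lay above the sham vehicle mice, but MI mouse 2 and sham vehicle mouse 1 both rounded to 17.4 CPM. Tgfb1 was thus the 1 gene of the 10 whose groups did not overlap in MI against sham vehicle mice on that scale, and 15.2% of all tested genes were separated in this way in either direction. It was also the 1 of 10 in NECA-treated MI against sham vehicle mice (8.51% of all tested genes), and in NECA-treated MI against MI mice no group pair of the 10 was free of overlap (9.07% of all tested genes). On the TMM scale it averaged 19.8 ± 1.18 CPM in NECA-treated MI, 22.6 ± 6.1 CPM in MI mice and 16.5 ± 0.808 CPM in the sham vehicle group (SD, n = 4, 3 and 3). The log2 fold change was 0.47 ± 0.25 (SE; 95% interval -0.059 to 1.01, edgeR adjusted p = 0.399) in MI against sham vehicle mice, and 0.18 without MI mouse 3. For NECA-treated MI it was -0.21 ± 0.23 against MI mice (interval -0.69 to 0.27) and 0.26 ± 0.26 against sham vehicle mice (interval -0.29 to 0.81). Within batch, Tgfb1 had 0.44 in MI against sham vehicle mice and -0.18 in NECA-treated MI against MI mice, and there the 4 NECA-treated MI mice lay below the 3 MI mice, although NECA-treated MI mouse 2 and MI mouse 2 both rounded to 20.8 CPM. Within batch it was the 1 gene of the 10 without overlap in each comparison, beside 14.3% of all genes in MI against sham vehicle mice, 7.49% in NECA-treated MI against MI mice and 8.56% in NECA-treated MI against sham vehicle mice.

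Tgfb2, a ligand that needs the co-receptor betaglycan for high-affinity binding, had 16.7, 13.8, 15.4 and 16.0 CPM in NECA-treated MI mice, 12.4, 9.46 and 29.9 CPM in MI mice, and 9.43, 6.77 and 16.5 CPM in sham vehicle mice. Sham vehicle mouse 3 lay among the NECA-treated MI mice and MI mouse 3 above all others, so the groups overlapped. The log2 fold change in MI against sham vehicle mice was 0.58 ± 0.36 (95% interval -0.18 to 1.35, edgeR adjusted p = 0.476), and -0.025 without MI mouse 3. It was -0.12 ± 0.32 in NECA-treated MI against MI mice, where it was 0.48 without MI mouse 3, and 0.46 ± 0.38 in NECA-treated MI against sham vehicle mice, none past the threshold.

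Tgfb3 was the most variable ligand. It had 31.0, 35.8, 32.5 and 16.0 CPM in NECA-treated MI mice, 24.9, 12.3 and 97.9 CPM in MI mice, and 12, 13.5 and 34.6 CPM in sham vehicle mice. In every group 1 mouse stood away from the rest: NECA-treated MI mouse 4 below its group, and MI mouse 3 and sham vehicle mouse 3 above theirs. The 1st and 2nd libraries of MI mouse 3 gave 97.9 and 96.9 CPM, so the high level was seen in both. Across the 10 mice the highest Tgfb3 level was 8.15 times the lowest, against 2.31 times for Tgfb1 and 4.43 times for Tgfb2. The standard deviation of its log2 CPM over the 10 mice, 0.81, was larger than that of 95.1% of all tested genes, while that of Tgfb1, 0.25, was larger than that of 20.8%. On the TMM scale the means were 28.4 ± 8.04 CPM in NECA-treated MI, 40.3 ± 37.2 CPM in MI mice and 20 ± 10.3 CPM in the sham vehicle group (SD, n = 4, 3 and 3). The log2 fold change was 1.05 ± 0.73 in MI against sham vehicle mice (95% interval -0.65 to 2.74, edgeR adjusted p = 0.556) and -0.55 ± 0.65 in NECA-treated MI against MI mice (interval -2.06 to 0.95, adjusted p = 0.8). Without MI mouse 3 both directions turned, to -0.27 and 0.76. Against sham vehicle mice, NECA-treated MI mice had 0.49 ± 0.75 (interval -1.24 to 2.23), and 1.03 without sham vehicle mouse 3.

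Per unit of transcript length, in TPM (transcripts per 1e6 transcripts) from the deposited log2 values, Tgfb1 and Tgfb3 made up most of the ligand transcripts. The share of Tgfb1 in the summed TPM of the ligands was 45% ± 6.65 in NECA-treated MI, 47.6% ± 12.7 in MI and 47.1% ± 9.53 in sham vehicle mice (SD, n = 4, 3 and 3). The share of Tgfb3 was 39% ± 7.78, 39.8% ± 15.4 and 33.2% ± 10.4 in the same groups, and that of Tgfb2 was 15.9% ± 2.73, 12.6% ± 2.92 and 19.7% ± 4.28. The group means differed by less than the spread between mice for Tgfb1 and Tgfb3. The share of Tgfb3 was above that of Tgfb1 in MI mouse 3 (56.5% against 33.5%) and sham vehicle mouse 3 (44.7% against 36.2%). It was also slightly above it in NECA-treated MI mice 1 to 3, with 41.6%, 43.3% and 43.8% of Tgfb3 and 39.7%, 42.9% and 42.8% of Tgfb1. In the other 5 mice Tgfb1 led, with 51.1% to 58.1%. From CPM, which does not divide by length, the order turned. Tgfb3 then had the largest mean share, 44% in NECA-treated MI, 45.1% in MI and 40.5% in sham vehicle mice, and Tgfb1 had 31.4%, 33.3% and 36.6% in the same groups. On that scale Tgfb3 was above Tgfb1 in 6 of the 10 mice, MI mouse 1 being added with 42.4% of Tgfb3 against 36.4% of Tgfb1. The number of 3′ end reads does not depend on transcript length, so dividing by length lowers genes with longer transcripts. The CPM shares are thus the ones to compare between ligands here.

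**Figure D2:**
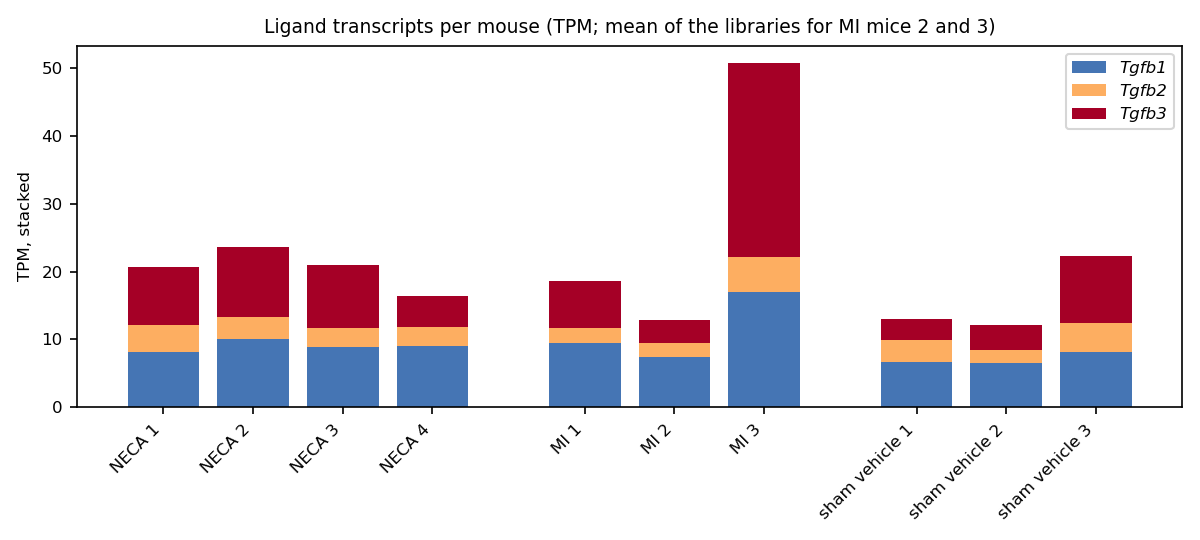
Stacked bars give TPM of Tgfb1, Tgfb2 and Tgfb3 in each mouse, with NECA-treated MI, MI and sham vehicle mice from left to right. MI mouse 3 had 17 TPM of Tgfb1 and 28.7 TPM of Tgfb3, above every other mouse. In CPM, which suits 3′ end reads, Tgfb3 has the largest mean share in each group. Tgfb1 is above it on that scale in NECA-treated MI mouse 4, MI mouse 2 and sham vehicle mice 1 and 2.

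Tgfbr2 encodes the receptor that binds the ligand first. Its transcript had 68.4, 74.8, 71.9 and 46.1 CPM in NECA-treated MI mice, 61.3, 39.4 and 106 CPM in MI mice, and 34.3, 31.6 and 98.2 CPM in sham vehicle mice. Sham vehicle mice 1 and 2 were the lowest of all 10 mice, and sham vehicle mouse 3 was the second highest, after MI mouse 3. Its log2 fold change was 0.24 ± 0.37 in MI against sham vehicle mice (95% interval -0.57 to 1.05, edgeR adjusted p = 0.812), -0.0055 ± 0.34 in NECA-treated MI against MI mice (interval -0.75 to 0.74) and 0.24 ± 0.36 in NECA-treated MI against sham vehicle mice. It was, when MI mouse 3 was left out, -0.14 in MI against sham vehicle mice and 0.37 in NECA-treated MI against MI mice. Without sham vehicle mouse 3 it was 0.84 in MI against sham vehicle mice and 0.84 ± 0.29 in NECA-treated MI against sham vehicle mice. Within batch and without that mouse, MI against sham vehicle mice gave 0.97 with an adjusted p of 0.0628 (edgeR), the smallest of the 882 adjusted p-values of the 10 genes over 30 settings and 3 comparisons, none of which was under 0.05.

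Tgfbr1 encodes the kinase that phosphorylates the Smad2 and Smad3 proteins. It had 12.7, 18.7, 14.5 and 11.3 CPM in NECA-treated MI mice, 11.5, 11.8 and 30.2 CPM in MI mice, and 11.1, 15 and 33.0 CPM in sham vehicle mice. Again mouse 3 of the MI and of the sham vehicle group stood above all others, and the 8 remaining mice lay between 11.1 and 18.7 CPM. The log2 fold change was -0.19 ± 0.34 in MI against sham vehicle mice (95% interval -0.91 to 0.53) and -0.30 ± 0.33 in NECA-treated MI against MI mice (interval -0.99 to 0.39). With MI mouse 3 left out these became -0.69 and 0.19. It was -0.50 ± 0.36 in NECA-treated MI against sham vehicle mice, and -0.023 without sham vehicle mouse 3. For MI mouse 2 the 2nd library gave 23.7 CPM (95% Poisson interval 15 to 35.5) against 11.4 CPM in its 1st library. Within batch the MI against sham vehicle value was of the other sign, 0.16. The 1st library lay below the 2nd library's counting interval for both receptors, Smad2 and Smad3 in MI mouse 2, 4 of the 10 genes, and inside it for all 10 genes in MI mouse 3. The share over all genes was not computed. Marker genes also differed between the libraries of MI mouse 2. Myh6 was lower in the 1st (15527 against 23897 CPM) and Fabp4 higher (927 against 617 CPM).

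The genes of the Smad proteins, which carry the signal to the nucleus, showed small differences between groups. Smad2 had 21.5, 23.6, 11.1 and 14.1 CPM in NECA-treated MI mice, 17.8, 14.6 and 18.7 CPM in MI mice, and 12, 14.3 and 22.8 CPM in sham vehicle mice. Its log2 fold changes were -0.045 ± 0.28 in MI against sham vehicle mice (95% interval -0.64 to 0.55), 0.10 ± 0.26 in NECA-treated MI against MI mice (interval -0.44 to 0.65) and 0.059 ± 0.29 in NECA-treated MI against sham vehicle mice. Smad3, the transducer that binds the promoters of many matrix genes directly, had 15.9, 17.1, 18.0 and 22.6 CPM in NECA-treated MI mice, 22.2, 10.7 and 19.6 CPM in MI mice, and 14.6, 15.8 and 29.9 CPM in sham vehicle mice. All 3 groups overlapped for both genes. Smad3 had a log2 fold change of -0.37 ± 0.29 in MI against sham vehicle mice (95% interval -0.98 to 0.24, edgeR adjusted p = 0.579), but 0.10 within batch, where the 2nd library of MI mouse 2 gave 20.6 CPM against 10.3 CPM in the 1st. It was 0.20 ± 0.27 in NECA-treated MI against MI mice and -0.28 within batch. NECA-treated MI mice had -0.17 ± 0.29 against sham vehicle mice.

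Smad7, which is induced by the pathway and blocks the receptor in a feedback loop, had 13.5, 3.25, 14.5 and 14.1 CPM in NECA-treated MI mice, 16.0, 10.1 and 17.5 CPM in MI mice, and 11.1, 14.3 and 15.7 CPM in sham vehicle mice. NECA-treated MI mouse 2 had 4 counts, 3.25 CPM with a 95% Poisson interval of 0.886 to 8.33 CPM, and was below every other mouse. The other 9 mice lay between 10.1 and 17.5 CPM. Differences were small, with a log2 fold change of -0.065 ± 0.37 in MI against sham vehicle mice (95% interval -0.83 to 0.70), -0.27 ± 0.35 in NECA-treated MI against MI mice (interval -1.0 to 0.46) and -0.33 ± 0.38 in NECA-treated MI against sham vehicle mice. Without NECA-treated MI mouse 2 the value against MI mice was 0.061.

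Ltbp1, whose protein holds latent TGF-beta in the matrix, was the steadiest of the 10 genes. It had 42.1, 56.9, 43.6 and 49.9 CPM in NECA-treated MI mice, 56.9, 42.4 and 49.3 CPM in MI mice, and 54.0, 49.6 and 52.7 CPM in sham vehicle mice. The highest mouse was 1.35 times the lowest, and the standard deviation of log2 CPM over the 10 mice, 0.19, was larger than that of only 6.11% of all tested genes. The log2 fold change was -0.19 ± 0.19 in MI against sham vehicle mice (95% interval -0.59 to 0.21), 0.012 ± 0.18 in NECA-treated MI against MI mice (interval -0.36 to 0.39) and -0.18 ± 0.19 in NECA-treated MI against sham vehicle mice. Adenosine receptors of the A2 class raise cyclic AMP, and the factor CREB binds the cAMP response element TGACGTCA. In the RefSeq promoter table (GRCm38.p6, another build than that of the counts; 250 bases before to 50 after each gene's start, both strands), 9 promoters of 7 of the 10 genes were present, and 1 of them held that element, as did 588 of all 32851 promoters (1.79%). It lay in an Ltbp1 promoter at chr17:75005445-75005474 on the + strand, where the element, in capitals below, begins 73 bases before the start. It is shown because it was the 1 match among these genes. The Smad palindrome GTCTAGAC was in 0 of the 9 and in 70 of all promoters (0.213%).
Ltbp1: gatttgctgccTGACGTCAcgtctgctgca

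Ltbp2, whose protein belongs to the same family but is known to associate with elastic fibres without binding latent TGF-beta, had the widest range. Its level was 11.9, 14.6, 12 and 0.942 CPM in NECA-treated MI mice, 5.33, 2.84 and 148 CPM in MI mice, and 2.57, 2.26 and 8.64 CPM in sham vehicle mice. Few counts lay behind most of these values, with 15, 18, 14 and 1 counts in NECA-treated MI mice, 6 counts in MI mouse 1 and 3, 3 and 11 counts in sham vehicle mice, while MI mouse 2 had 86 counts in its deep 1st library and 4 in its 2nd. MI mouse 3 had 4034 counts in its 1st library (149 CPM, 95% Poisson interval 144 to 153) and 130 counts in its 2nd (135 CPM, interval 113 to 161). On the log2 scale the fold change was 3.39 ± 1.72 in MI against sham vehicle mice (95% interval -0.65 to 7.42, edgeR adjusted p = 0.417) and -2.28 ± 1.36 in NECA-treated MI against MI mice (interval -5.48 to 0.92, adjusted p = 0.573). Without MI mouse 3 these became -0.36 and 1.46 ± 0.61 (adjusted p = 0.304). For NECA-treated MI against sham vehicle mice it was 1.11 ± 2.0. Of the 4 NECA-treated MI mice, 3 lay above all sham vehicle mice and mouse 4 lay below them.

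**Figure D3:**
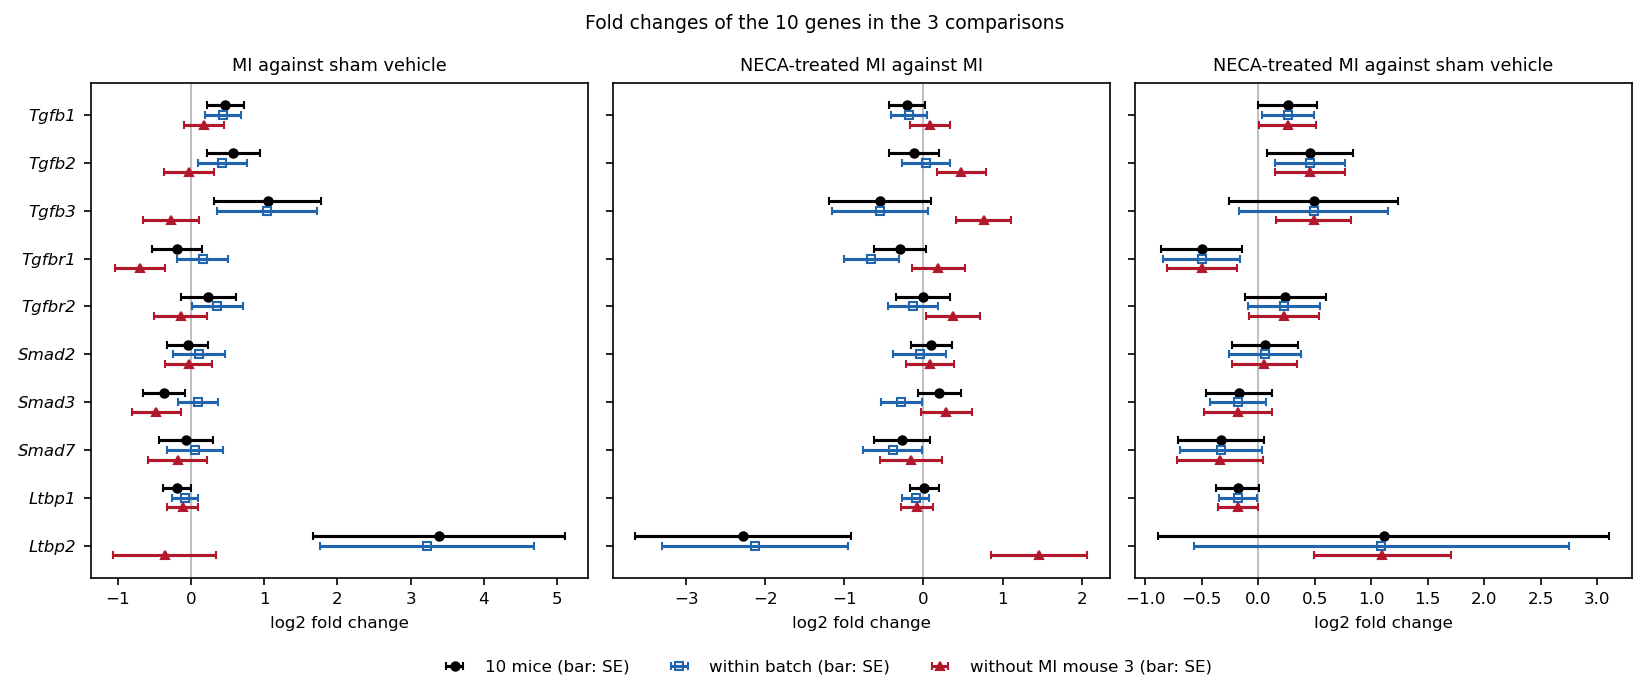
Log2 fold changes of the 10 genes with standard errors, from all 10 mice (circles), within batch (squares) and without MI mouse 3 (triangles), in 1 panel per comparison. For Ltbp2, Tgfb2, Tgfb3 and Tgfbr2 the triangles lie on the other side of 0 from the circles in MI against sham vehicle and in NECA-treated MI against MI mice.

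Per transcript length, the median level over the 10 mice was highest for Ltbp1 with 11 TPM, followed by Tgfbr2 with 9.78, Tgfb1 with 8.58 and Tgfb3 with 7.73 TPM. Smad2, Smad3 and Smad7 had 4.54, 4.12 and 4.01 TPM, and Tgfb2, Tgfbr1 and Ltbp2 had 3.05, 2.81 and 1.29 TPM. In CPM of the library total, which suits 3′ end reads because it does not divide by length, Tgfbr2 was above Ltbp1 in every group mean. Tgfbr2 had 65.3, 69 and 54.7 CPM in NECA-treated MI, MI and sham vehicle mice, and Ltbp1 had 48.2, 49.5 and 52.1 CPM. This order did not hold in every mouse. Ltbp1 was above Tgfbr2 in sham vehicle mice 1 (54.0 against 34.3 CPM) and 2 (49.6 against 31.6 CPM). It was also above it in MI mouse 2 (42.4 against 39.4 CPM) and NECA-treated MI mouse 4 (49.9 against 46.1 CPM). The sham vehicle mean of Tgfbr2 thus led through mouse 3 alone, with 98.2 against 52.7 CPM. TPM also varied at similar CPM. Smad3 had 11.3 TPM at 15.8 CPM in sham vehicle mouse 2, but 2.55 TPM at 14.6 CPM in mouse 1. Neighbours in the TPM order overlapped in their range over mice, for example 7.94 to 19.5 TPM for Ltbp1 and 4.73 to 16.1 TPM for Tgfbr2.

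The ligands, Tgfbr2 and Ltbp2 were higher in mice with a higher sum of fibroblast marker transcripts. Where that sum was highest it was mostly collagen transcripts, which are also listed below as targets of the pathway. Of 10628 CPM in the 1st library of MI mouse 3, Col3a1 had 4680, Col1a2 2395 and Col1a1 2311 CPM. In NECA-treated MI mice Pdgfra and Tcf21 lay within the sham vehicle range. Over the 10 mice, in log2 of TMM-scaled CPM, Tgfb3 followed the summed fibroblast markers with Pearson's r = 0.922 (permutation p = 0.00014, adjusted 0.0042 over 30 relations) and Spearman's rho = 0.924 (adjusted p = 0.0075). Ltbp2 had r = 0.878 (adjusted permutation p = 0.00885) and rho = 0.915 (adjusted p = 0.0075). Tgfbr2 had r = 0.823 (adjusted permutation p = 0.0134) and rho = 0.806 (adjusted p = 0.0315). Without MI mouse 3 and sham vehicle mouse 2, the mice farthest from the median of the markers, r was 0.829 for Tgfb3, 0.742 for Ltbp2 and 0.705 for Tgfbr2. Within batch it was 0.926, 0.878 and 0.814. Tgfb1 and Tgfb2 had r = 0.829 and 0.819 (adjusted permutation p = 0.0134 each), but rho of 0.717 and 0.733 had adjusted p of 0.065 and 0.0598 by permutation, and without those mice r was 0.522 and 0.46, so these relations rest on them. For the other genes r was 0.416 for Tgfbr1, 0.263 for Smad2, -0.0406 for Smad3, -0.286 for Smad7 and -0.595 for Ltbp1, with adjusted permutation p-values of 0.123 to 0.917. The mice of all 3 groups are pooled in these relations, which were chosen after the values were seen.

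**Figure D4:**
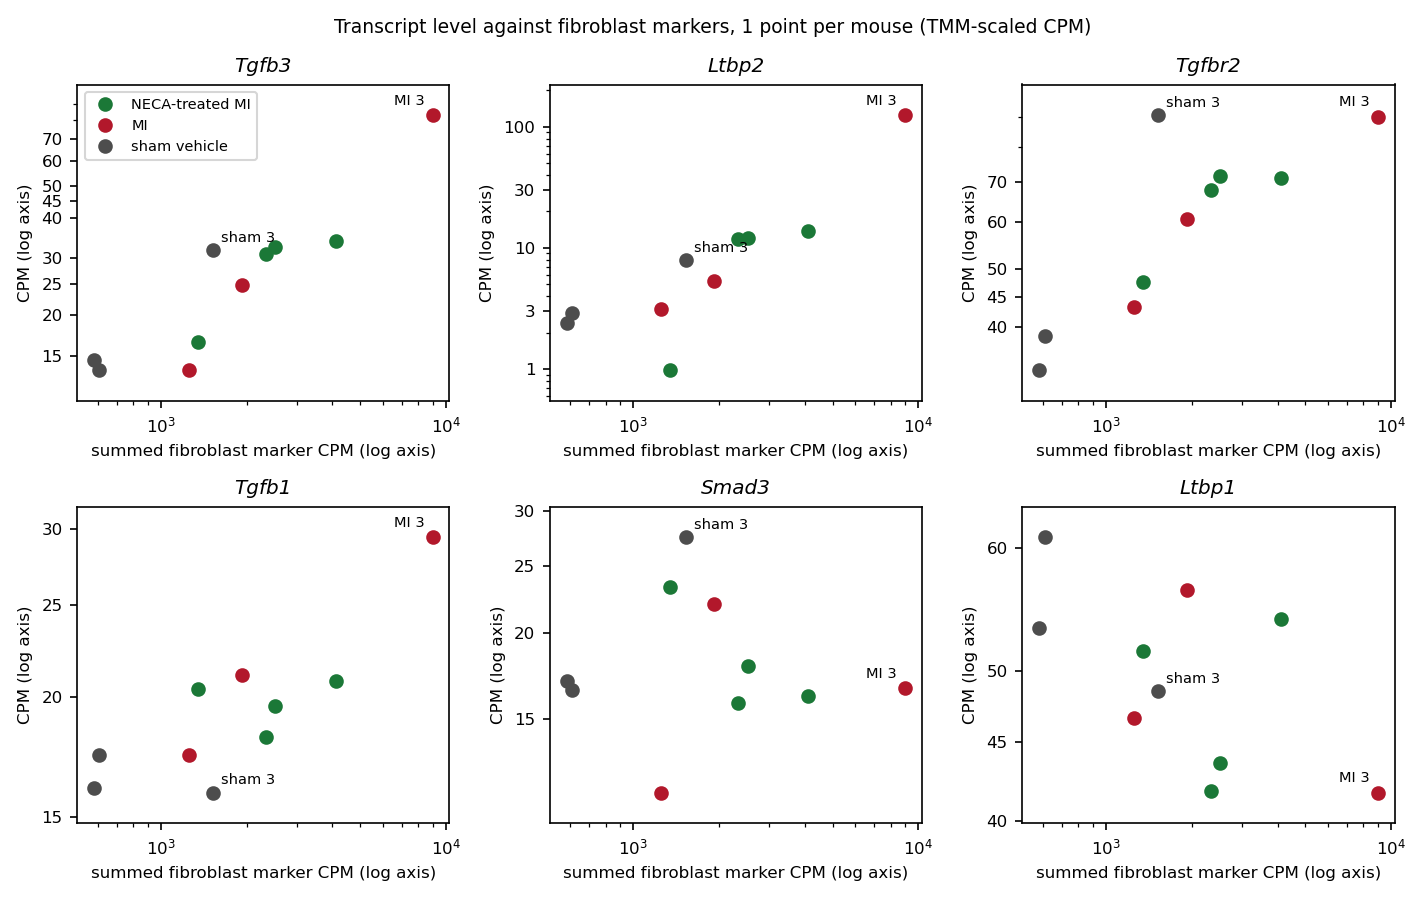
Each point is 1 mouse, with the summed TMM-scaled CPM of 7 fibroblast markers on the x axis and the TMM-scaled CPM of 1 gene on the y axis, both log axes, in NECA-treated MI (green), MI (red) and sham vehicle (grey) mice. Tgfb3, Ltbp2 and Tgfbr2 climb with the markers (r = 0.922, 0.878 and 0.823), while Smad3 and Ltbp1 do not (r = -0.0406 and -0.595).

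Markers of macrophages, another source of Tgfb1, summed to 398 to 669 CPM in NECA-treated MI mice and 278 to 963 CPM in libraries of MI mice, against 165 to 358 CPM in sham vehicle mice, and all 8 were detected in every library. Tgfb1 followed them with r = 0.8 (adjusted permutation p = 0.0134) and rho = 0.821 (adjusted p = 0.0309). Its r was 0.878 without sham vehicle mice 1 and 2, the farthest from the median, and 0.766 within batch, where rho was lower at 0.626. Tgfb3 had r = 0.804, Tgfb2 0.818, Tgfbr2 0.768 and Ltbp2 0.738 with the macrophage markers, and 0.778, 0.617, 0.425 and 0.814 without those mice. Against the summed ventricular cardiomyocyte markers r was negative for Tgfb3 (-0.895), Ltbp2 (-0.854), Tgfbr2 (-0.844), Tgfb2 (-0.745) and Tgfbr1 (-0.719), with adjusted permutation p-values of 0.00885, 0.0134, 0.00885, 0.0358 and 0.04. Their rho was -0.76, -0.758, -0.818, -0.491 and -0.511, and that of Tgfbr2 alone had an adjusted permutation p under 0.05 (0.0309). Without MI mouse 3 and sham vehicle mouse 1, the farthest from the median of these markers, r was -0.693, -0.623, -0.858, -0.46 and -0.604. What part these cell types had in the levels of the 10 genes was not tested.

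Other transcripts most like the best-measured gene of each role are given as a description, by Pearson's r of log2 CPM over the 10 mice. For Tgfb3 they were Loxl1 (0.972), a cross-linker of elastin, Emilin1 (0.964), a glycoprotein of elastic fibres, and Col6a2 (0.959), a chain of collagen VI. For Tgfbr2 they were Pgghg (0.971), Golim4 (0.954) and the thrombospondin gene Thbs3 (0.951). For Smad3 they were Kidins220 (0.901), Tsc1 (0.895) and Madd (0.891), and for Ltbp1 the potassium channel gene Kcnq1 (0.917), Pxmp4 (0.911) and Eml1 (0.906). Each set was picked as the highest of all tested genes, so its values are selected and carry no test.

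Among other genes of the pathway, no gene of the 6 lists passed the test in any comparison (edgeR, adjusted p under 0.05). The target genes in matrix and smooth muscle showed the largest median. In MI against sham vehicle mice 20 of the 21 tested targets were higher and 1 lower, while 50.5% of all tested genes were higher. The median log2 fold change of the targets was 1.80, beside 0.0049 over all tested genes, and 0.38 without MI mouse 3. Between NECA-treated MI and MI mice, 3 were higher and 18 lower, beside 47.8% higher among all tested genes, with a median of -0.59, which turned to 1.05 without MI mouse 3. In NECA-treated MI against sham vehicle mice 18 were higher and 3 lower, beside 48% higher among all tested genes, with a median of 1.40. The groups did not overlap for 2 of the 21 targets in MI against sham vehicle mice, 0 in NECA-treated MI against MI mice and 9 in NECA-treated MI against sham vehicle mice, beside 15.2%, 9.07% and 8.51% of all tested genes. Of the 22 listed targets, Col1a1, Col1a2 and Col3a1 are also fibroblast markers here, and Acta2, Fn1 and Postn also markers of activated fibroblasts, which summed to 322 to 1048 CPM in NECA-treated MI mice and 163 to 2370 CPM in libraries of MI mice, against 141 to 410 CPM in sham vehicle mice. Acta2, 1 of the 4 markers in that sum, did not follow it, with 45.4 to 120 CPM in NECA-treated MI mice and 43.2 to 150 CPM in libraries of MI mice, against 99.2 to 137 CPM in sham vehicle mice. The target Tagln is also a marker of smooth muscle and pericytes. Those 4 markers summed to 526 to 712 CPM in NECA-treated MI mice and 538 to 936 CPM in MI mice, against 387 to 428 CPM in sham vehicle mice. Most of that sum was Rgs5, with 393 to 561 CPM in NECA-treated MI mice, 457 to 661 CPM in libraries of MI mice and 266 to 319 CPM in sham vehicle mice. Myh11, Pdgfrb and Tagln overlapped between the groups. Tagln had 12.2 to 34.2 CPM, 14.4 to 79.5 CPM and 14.6 to 51.1 CPM in the same order. The part of these cell types in the targets' values was not tested.

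Postn, the matricellular protein periostin of activated fibroblasts, averaged 162 ± 72.1 CPM in NECA-treated MI, 352 ± 493 CPM in MI mice and 23.9 ± 20.7 CPM in the sham vehicle group (TMM scale, SD, n = 4, 3 and 3). Its log2 fold change was 3.86 ± 1.31 in MI (edgeR adjusted p = 0.259) and 2.72 ± 1.25 in NECA-treated MI (adjusted p = 0.999), each against sham vehicle mice. MI mouse 3 had 1084 and 1178 CPM of Postn in its libraries, against 60.4 to 68.6 CPM in those of MI mice 1 and 2, and the value in MI without it was 1.48 ± 0.76. Col3a1, a fibrillar collagen chain, had 2.75 ± 1.01 in MI against sham vehicle mice (adjusted p = 0.282), and 1.17 ± 0.73 without MI mouse 3. Spp1, encoding the secreted phosphoprotein osteopontin, had 0.942 to 17.9 CPM in NECA-treated MI mice (mean 8.65), 2.66 to 32.5 CPM in MI mice (mean 13) and 0 counts in the sham vehicle mice. These means were at least 10.9-fold and 16.4-fold higher than the 0.796 CPM given by 3 counts in the 3 sham vehicle libraries together, and NECA-treated MI against sham vehicle mice did not pass the test (edgeR adjusted p = 0.999). Ccn2, a direct target encoding a matricellular growth factor, averaged 59.9 ± 8.85 CPM in NECA-treated MI against 125 ± 104 CPM in MI mice, with -1.09 ± 0.54 on the log2 scale (adjusted p = 0.506), and -0.17 without MI mouse 3. Id3, a target of the related bone morphogenetic proteins (BMPs), had -0.45 ± 0.22 in the same comparison (adjusted p = 0.462), and -0.089 within batch.

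Of the proteins that hold, bind or activate the ligands, 15 of 17 tested genes were higher and 2 lower in MI against sham vehicle mice (median 0.61), and 3 were higher and 14 lower in NECA-treated MI against MI mice (median -0.38). Without MI mouse 3 these medians were -0.12 and 0.37. Against sham vehicle mice, 12 were higher and 5 lower (median 0.23) in NECA-treated MI mice. The metalloproteinase gene Mmp2, whose product can release latent ligand, averaged 81 ± 30 CPM in NECA-treated MI, 127 ± 105 CPM in MI mice and 26.3 ± 11.5 CPM in the sham vehicle group (log2 fold change 2.28 ± 0.69 in MI against sham vehicle mice, adjusted p = 0.215, and 1.62 ± 0.68 in NECA-treated MI against sham vehicle mice, adjusted p = 0.999, edgeR). The value in MI was 1.26 without MI mouse 3. Furin, which encodes the protease that cuts the ligand precursors, had 51.2 ± 19 CPM in MI mice and 77.5 ± 5.69 CPM in the sham vehicle group (-0.66 ± 0.23, adjusted p = 0.204, and -0.34 within batch). Between NECA-treated MI and MI mice it had 0.39 ± 0.22, and 0.074 within batch. The integrin subunit gene Itgav, whose product binds latent ligand, had -0.39 ± 0.25 in NECA-treated MI against MI mice (-0.13 within batch and -0.11 without MI mouse 3) and -0.57 ± 0.27 against sham vehicle mice. Without sham vehicle mouse 3, 1 gene of this list passed in MI against sham vehicle mice, the matrix proteoglycan gene Dcn, with 1.34 ± 0.26 (edgeR adjusted p = 0.0328). In that setting 39 of all 9688 tested genes passed, 20 higher and 19 lower. Dcn was named because it was the 1 call of the list, after its value was seen, and is also a fibroblast marker here.

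Among the other receptors, 2 of 8 tested genes were higher and 6 lower in MI against sham vehicle mice (median -0.19), 6 were higher and 2 lower in NECA-treated MI against MI mice (median 0.12), and 2 higher and 6 lower in NECA-treated MI against sham vehicle mice (median -0.14). Eng, the endothelial co-receptor endoglin, averaged 173 ± 13.6 CPM in NECA-treated MI, 130 ± 30.5 CPM in MI mice and 213 ± 64.2 CPM in the sham vehicle group. The 3 MI mice lay below the 3 sham vehicle mice, and 15.2% of all tested genes were separated in this comparison in either direction. The log2 fold change of Eng was -0.70 ± 0.22 (edgeR adjusted p = 0.159), -0.57 within batch and -0.43 without sham vehicle mouse 3. NECA-treated MI against MI mice gave 0.41 ± 0.21 (adjusted p = 0.487). Endothelial markers summed to 576 to 668 CPM in NECA-treated MI mice and 427 to 768 CPM in libraries of MI mice, against 599 to 651 CPM in sham vehicle mice. Acvrl1, the type I receptor that pairs with endoglin in endothelium, had 0.73 ± 0.29 in MI (adjusted p = 0.257) and 0.41 ± 0.29 in NECA-treated MI (adjusted p = 0.999), each against sham vehicle mice, and 0.48 and 0.16 without sham vehicle mouse 3. Acvr2a, an activin receptor gene, had 0.39 ± 0.24 in NECA-treated MI against MI mice (adjusted p = 0.555).

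For the other Smads and nuclear partners, 2 of 7 tested genes were higher and 5 lower in MI against sham vehicle mice (median -0.13), 5 higher and 2 lower in NECA-treated MI against MI mice (median 0.15), and 3 higher and 4 lower in NECA-treated MI against sham vehicle mice (median -0.0033). Smad6, the inhibitor of BMP signalling, averaged 7.32 ± 1.5 CPM in NECA-treated MI, 8.69 ± 1.79 CPM in MI mice and 13.8 ± 9.37 CPM in the sham vehicle group, with -0.77 ± 0.39 in MI and -0.94 ± 0.41 in NECA-treated MI, each against sham vehicle mice (edgeR adjusted p = 0.364 and 0.999), which were -0.019 and -0.19 without sham vehicle mouse 3. Ep300, an acetyltransferase that acts as a Smad coactivator, had 0.73 ± 0.24 in NECA-treated MI against MI mice (adjusted p = 0.319) but 0.15 within batch, and -0.54 ± 0.26 in MI against sham vehicle mice but 0.034 within batch. Smad1 and Smad5, transducers of BMP signals, had -0.60 ± 0.28 in NECA-treated MI against MI mice (-0.38 without MI mouse 3) and 0.22 ± 0.18 in NECA-treated MI against sham vehicle mice, in that order.

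Of the list of inhibitors and feedback genes, 6 of 9 tested genes were higher and 3 lower in MI against sham vehicle mice (median 0.055, and -0.074 within batch). There were 5 higher and 4 lower in NECA-treated MI against MI mice (median 0.032). In NECA-treated MI against sham vehicle mice 2 were higher and 7 lower (median -0.049). Bambi, a receptor-like protein without kinase that blocks the pathway, averaged 7.65 ± 1.5 CPM in NECA-treated MI, 15 ± 1.72 CPM in MI mice and 13.4 ± 7.83 CPM in the sham vehicle group. All 4 NECA-treated MI mice lay below all 3 MI mice, and 9.07% of all tested genes were separated in this comparison in either direction. Few counts lay behind these levels, as 1 count was 0.795 to 0.942 CPM in libraries of NECA-treated MI mice. The log2 fold change of Bambi was -1.01 ± 0.35 (edgeR adjusted p = 0.333) and -0.77 within batch. It was -0.85 ± 0.39 against sham vehicle mice (adjusted p = 0.999). Smurf1, a ubiquitin ligase that degrades receptors and Smads, had -0.43 ± 0.26 in MI against sham vehicle mice and 0.42 ± 0.24 in NECA-treated MI against MI mice, and -0.21 and 0.20 within batch. Usp15, on this list as a deubiquitinase of the receptor and not as an inhibitor, had -0.32 ± 0.20 in MI against sham vehicle mice and -0.18 within batch. The Smad corepressor gene Skil had 0.67 ± 0.39 in NECA-treated MI against sham vehicle mice, and 1.12 without sham vehicle mouse 3. Of 11 other listed ligands 1 was tested, Bmp6, with -0.54 ± 0.28 in MI against sham vehicle mice, -0.06 ± 0.27 in NECA-treated MI against MI mice and -0.60 ± 0.28 in NECA-treated MI against sham vehicle mice.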

How the data were processed

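Total RNA was profiled with a modified CEL-Seq2 protocol, which reads 3′ ends, in 12 libraries of 10 mice, per the labels' protocols. Reads were handled with FastQC 0.11.9, STAR and RSEM on GRCm39, per the submitters' processing notes. The sources used here do not name the annotation release, strand setting or any use of molecular identifiers. Expected counts per gene were deposited as whole numbers by the authors, which went into the tests without further rounding. The authors also deposited log2(TPM + 1), which was turned back to TPM. Of 57054 gene rows, the 56647 with values in every library were used. 306 had values only in the 1st libraries and 101 lacked them only there. Symbols came from GENCODE M21 names (52029 rows matched).

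The mouse was the replicate, and counts of repeat libraries were summed. Totals were 0.96 to 1.33 M counts, and 30.75 and 27.13 M in the 1st libraries. At this depth 1 count was 0.752 to 1.042 CPM in the shallow libraries. Poisson intervals and floors (3 counts) cover counting error only. edgeR 4.0.16 (R 4.3.3; filterByExpr, TMM, robust quasi-likelihood test, two-sided) was fitted to all 10 mice with Benjamini-Hochberg adjustment over 9688 genes (9505 within batch), threshold 0.05, and tested on simulated data. Alternatives were other scalings, DESeq2 1.42.0, limma 3.58.1 on log2(TPM + 1), no filter, single libraries, the groups compared alone, a replicate block and leaving out each mouse. Alternatives for pathway lists, named pathway genes and marker relations were added after seeing the data. Relations to markers used 100000 permutations (two-sided). The 10 genes and all lists were chosen with earlier results of these data known. Named pathway genes were, per list and comparison, the 2 of smallest p, and likeness took the 3 genes of highest r for the gene of highest mean CPM in each role.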

Additional observations from a re-analysis of the deposited data

Results flagged for a closer look

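Smad7 in NECA-treated MI mouse 2 stood far from its group. It had 3.25 CPM of the library total, against 13.5 CPM in the nearest of the 3 other NECA-treated MI mice, a gap of 0.909 of the group's range, which is above Dixon's 95% critical value for 4 samples. Chance gives such a gap in about 1 in 20 groups, and 10 genes were looked at. The value rests on 4 counts.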

How the results depend on the processing

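None of the 882 adjusted p-values that the 10 genes had over 30 settings and 3 comparisons was under 0.05. Fold changes kept their sign in 236, 225 and 278 of the alternative values and turned it in 54, 65 and 12, for MI against sham vehicle, NECA-treated MI against MI and NECA-treated MI against sham vehicle mice in that order. Depth limits the values of few counts, such as 1 count of Ltbp2 and 4 of Smad7 in single mice. It also limits the separation of Tgfb1, which had 18 to 27 counts in single NECA-treated MI and sham vehicle mice. For values that turned or moved the cause was not tested.

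For MI against sham vehicle mice the 15 calls became 7 with no scaling beyond library totals (3 higher and 4 lower, against 7 and 8), 103 with DESeq2, 346 with no filter, 7 within batch, 9 with the 1st libraries alone, 0 with limma (888 at an unadjusted p under 0.05) and 0 with those groups alone (899). For NECA-treated MI against MI mice the 1 call became 0 with no scaling, 9 with DESeq2, 74 with no filter, and 0 within batch, with limma and with those groups alone. For NECA-treated MI against sham vehicle mice 0 calls became 4 with DESeq2, 27 with no filter, 1 within batch and 7 with those groups alone. With a replicate block the counts were 6, 0 and 1, and in NECA-treated MI against MI mice Tgfb3 had 0.062, Tgfbr2 0.22 and Ltbp1 -0.031. Deviations of same-numbered mice from their group means had correlations of -0.248 to 0.199 over all tested genes. With so few mice these cannot settle whether a number marks a shared litter or day, which the labels do not say. Leaving out 1 mouse gave 0 to 310, 0 to 126 and 0 to 7 calls, with the highest counts without MI mouse 1 (310 and 126) and, within batch, without MI mouse 3 (7).

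Sign changes in MI against sham vehicle mice were Smad2 0.042 and Smad7 0.056 with no scaling, Smad2 0.0015 with no filter, Tgfbr1 0.16, Smad2 0.11, Smad3 0.10 and Smad7 0.052 within batch, and Tgfb2 -0.049, Tgfbr1 0.045, Smad2 0.12 and Ltbp1 0.41 with limma. For NECA-treated MI against MI mice they were Ltbp1 -0.02 with no scaling, Tgfbr2 0.0015 with DESeq2, Ltbp1 -0.032 with no filter, Tgfb2 0.03, Smad2 -0.049, Smad3 -0.28 and Ltbp1 -0.099 within batch, and Tgfb2 0.12, Tgfbr2 0.15, Smad2 -0.13 and Ltbp1 -0.40 with limma. Among the other named pathway genes Ep300 turned to 0.034 within batch in MI against sham vehicle mice. Limma also gave Smad2 -0.0084 and Ltbp1 0.013 in NECA-treated MI against sham vehicle mice.

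Leaving out 1 mouse, with or without the 1st libraries, gave these ranges in MI against sham vehicle mice: Tgfb2 -0.025 to 0.91, Tgfb3 -0.27 to 1.58, Tgfbr1 -0.69 to 0.64, Tgfbr2 -0.14 to 0.97, Smad2 -0.26 to 0.40, Smad3 -0.53 to 0.40, Smad7 -0.18 to 0.14, Ltbp1 -0.29 to 0.016 and Ltbp2 -0.36 to 4.19. Those of NECA-treated MI against MI mice were Tgfb1 -0.43 to 0.082, Tgfb2 -0.45 to 0.48, Tgfb3 -1.05 to 0.76, Tgfbr1 -1.0 to 0.19, Tgfbr2 -0.27 to 0.37, Smad2 -0.34 to 0.32, Smad3 -0.41 to 0.36, Smad7 -0.54 to 0.061, Ltbp1 -0.17 to 0.11 and Ltbp2 -2.90 to 1.46. Those of NECA-treated MI against sham vehicle mice were Tgfbr2 -0.016 to 0.84, Smad2 -0.091 to 0.27 and Smad3 -0.30 to 0.12. Where 1 mouse alone turned a value of MI against sham vehicle mice for Tgfb2, Tgfb3, Tgfbr2 or Ltbp2, it was MI mouse 3.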
